A study of Arabidopsis thaliana with 9 samples.

Results

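The genes of tetrapyrrole and chlorophyll metabolism were followed in 9 RNA sequencing libraries of whole Arabidopsis thaliana seedlings. They are 36 nuclear genes picked by locus out of 32833 in the expression table, and all 36 were found. The list runs from glutamyl-tRNA reductase through the chlorophyll, heme and bilin branches, and it includes the regulators FLU and GUN4 and the enzymes that interconvert chlorophylls a and b. Each of 3 groups held 3 libraries of poly(A) RNA: green seedlings of the 2cpab mutant, albino seedlings of the same mutant, and the wild type Col-0. All were 6 days old and had been kept on MS medium with 0.5% sucrose in unbroken light (125 µE per square metre and second). The mutant is named for the genes of the 2 chloroplast 2-Cys peroxiredoxins, and the labels give no alleles. Green and albino seedlings carry the same genotype label and differ by colour, so the lack of pigment defines the albino group and is no result. The labels do not say whether replicates were separate cultures, so p-values measure only the spread between these libraries, which may be technical.

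Tetrapyrrole synthesis in plants takes place in plastids and starts from glutamate bound to its tRNA. Glutamyl-tRNA reductase, encoded by the HEMA genes, makes the step that limits the flow, and aminolevulinic acid is the first committed compound. A shared series of enzymes turns it into protoporphyrin IX. There the pathway forks: magnesium chelatase leads to chlorophyll, and ferrochelatase leads to heme and on to the bilin of phytochrome. Free intermediates are photosensitizers that make singlet oxygen in light, and the pathway is held in check by heme and by FLU. Several steps have an isozyme tied to greening tissue and another expressed more evenly.

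Levels are given as scaled FPKM, fragments scaled to transcript length and library total, after a scaling by the authors that gives every library the same 75th percentile. Fold changes are differences in log2(scaled FPKM + 1), given with their standard error, and a gene was called at an adjusted p below 0.05. Read totals were not used here, so depth is unknown. The 3 values given for a group are its replicates 1, 2 and 3 in that order. RNA of 2CPA was at 35.8, 267 and 256 in green, 24.2, 21.4 and 25.4 in albino and 989, 763 and 889.7 in wild-type replicates 1 to 3. RNA of 2CPB was at 7.21, 48.65 and 54.2 in green, 1.82, 2.89 and 1.52 in albino and 237, 174 and 188 in wild-type libraries. Green replicates 2 and 3 thus held far more of both RNAs than the albino libraries, and green replicate 1 held the least of the green libraries. That library was also the lowest green library for 28 of the 33 members tested, and wild-type replicate 1 was the highest wild-type library for 31 of 33. Both of them are therefore left out in turn where a result rests on them. The summed level of 5 leaf markers (small subunits of Rubisco and light-harvesting proteins) was 29313 to 50506 in green, 3269 to 4024 in albino and 35391 to 44965 in wild-type libraries. In albino against wild-type seedlings 5 of 5 fell, where 20.1% of all genes did. The 7 root markers summed to 74.7 to 84.3 in green, 109 to 119 in albino and 84.4 to 126 in wild-type libraries. Of these, 1 of 7 was called higher in albino against wild-type seedlings, where 23.4% of all genes were. In albino against green seedlings 4 of 7 were higher, where 18.5% of all genes were. The 5 seed storage and oleosin markers summed to 57.3 to 63.2 in green, 48.8 to 126 in albino and 6.87 to 21.1 in wild-type libraries. In each mutant group 4 of 5 were higher than in the wild type, where 3.71% of all genes were in green and 23.4% in albino seedlings. Wild-type replicates 1 and 3 had CRU2 at 0, and wild-type replicate 1 had CRU3 at 0. Genes were tested if they reached a scaled FPKM of 1 in 3 or more libraries. CRU2, CRU3 and OLEO1 passed this filter only because of their level in mutant libraries, which limits what the count of seed markers can show. In whole seedlings, fewer cells of a type and less RNA per cell cannot be told apart, and the part of these markers in the results below was not tested.

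Most of the listed members were lower in albino seedlings, while only 4 members were lower in green seedlings. Of the 36 members, 33 reached a scaled FPKM of 1 in 3 or more libraries and were tested, and all of these stood at 5.32 or more in every library. In albino seedlings 29 of 33 fell against the wild type and 0 rose, where 20.1% of all 19731 genes tested fell and 23.4% rose (43.5% called). The members' median log2 fold change was -1.28, against 0.074 over all genes tested, and 22 members fell by 1 or more, where 7.74% of all genes did. In green seedlings 4 of 33 fell and 0 rose, where 5.16% of all genes fell and 3.71% rose, with a median of -0.11 against 0.023. Those 4 were HEMA1, HEMA2, FC1 and NYC1, and 3 of them fell by 1 or more, where 1.14% of all genes did. Between the mutant groups 27 of 33 were lower on the albino side and 1, NYC1, was higher, where 17.7% of all genes were lower and 18.5% higher; 19 members were lower by 1 or more, where 6.63% of all genes were. Together the 36 genes took 0.617 ± 0.0285% of all FPKM in green, 0.302 ± 0.0173% in albino and 0.706 ± 0.0784% in wild-type libraries (SD, n = 3 each). The counts in green were 4 without green replicate 1 and 4 without wild-type replicate 1, and the count of falls in albino was 29 in both cases. When each library was scaled to the same sum (TPM), the median of all genes in albino seedlings moved to 0.50 and that of the members to -0.81. Under TPM 12664 of all genes rose and 2151 fell, against 4613 and 3968 with the deposited scaling, and of the members 26 fell and 3, HEMF2, HEMG2 and HY2, rose. The members' median minus that of all genes was -1.31 under TPM and -1.36 with the deposited scaling.

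**Figure D1:**
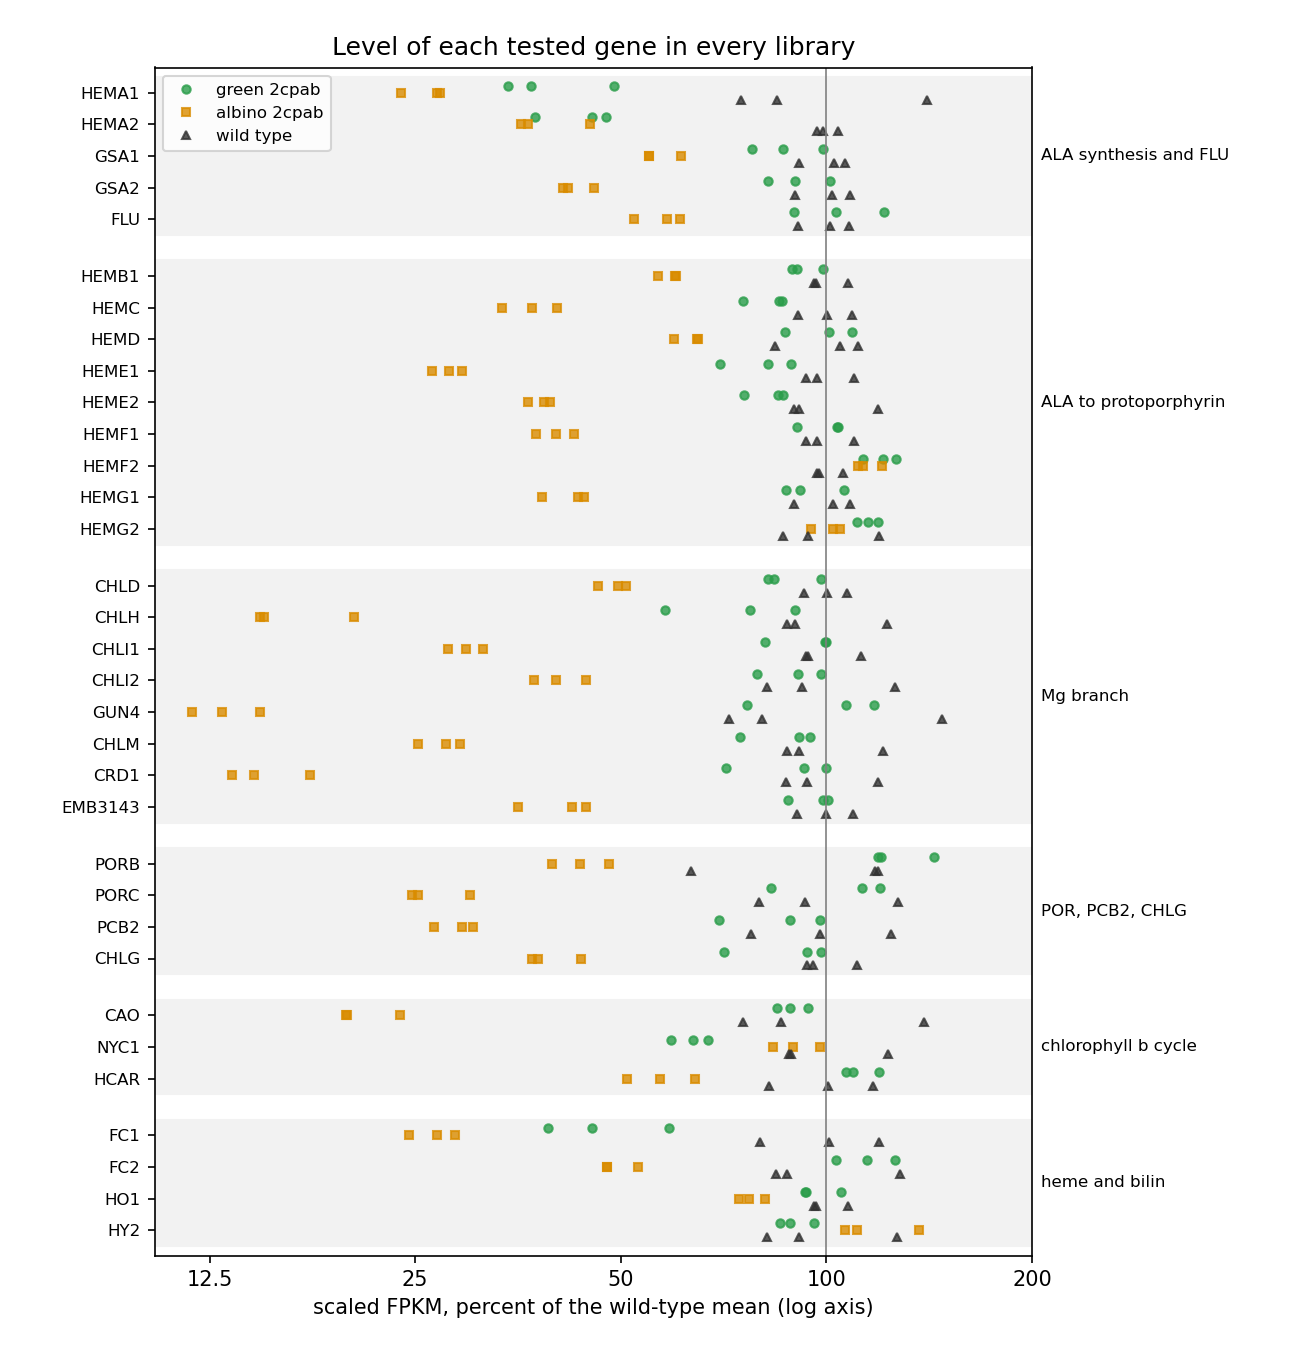
Scaled FPKM of the 33 tested genes in each library as a percent of the wild-type mean (log axis), by branch; circles are green 2cpab, squares albino 2cpab and triangles wild-type libraries. Albino libraries lie left of every wild-type library for 29 genes, and green libraries lie left of every wild-type library for HEMA1, HEMA2, FC1 and NYC1 and, by less, for HEMC, HEME1 and HEME2. The share of all genes whose groups lie apart in this way was not counted, so this only describes the plot.

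The members called lower by the most in albino seedlings were GUN4, CRD1, CHLH and CAO. Promoter sequences are printed for CRD1, CAO and GUN4 among these, for PORB, with matches to CCAATC and to the evening element, and for the ferrochelatase pair FC1 and FC2, of which FC1 was called lower in green seedlings. They are the 250 bases before the annotated gene start, 5′ to 3′ on the gene's strand, from the TAIR10.1 assembly of RefSeq: chr3:21076255-21076504 (plus strand), chr1:16851272-16851521 (minus), chr3:21949797-21950046 (minus), chr4:13725296-13725545 (plus), chr5:9096201-9096450 (plus) and chr2:12954149-12954398 (minus). Capitals mark matches, on either strand, to the G-box CACGTG, to CCAATC, to GATAAG or to the evening element AAATATCT.
CRD1: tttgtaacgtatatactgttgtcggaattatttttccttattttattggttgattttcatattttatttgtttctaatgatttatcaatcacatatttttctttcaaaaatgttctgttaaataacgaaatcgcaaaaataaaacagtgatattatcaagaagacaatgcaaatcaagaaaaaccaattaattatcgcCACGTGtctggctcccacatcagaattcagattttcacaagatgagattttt
CAO: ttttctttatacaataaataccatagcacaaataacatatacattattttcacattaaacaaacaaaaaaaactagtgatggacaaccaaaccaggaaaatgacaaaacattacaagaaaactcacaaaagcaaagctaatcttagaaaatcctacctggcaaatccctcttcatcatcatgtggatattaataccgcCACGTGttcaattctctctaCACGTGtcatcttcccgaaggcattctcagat
GUN4: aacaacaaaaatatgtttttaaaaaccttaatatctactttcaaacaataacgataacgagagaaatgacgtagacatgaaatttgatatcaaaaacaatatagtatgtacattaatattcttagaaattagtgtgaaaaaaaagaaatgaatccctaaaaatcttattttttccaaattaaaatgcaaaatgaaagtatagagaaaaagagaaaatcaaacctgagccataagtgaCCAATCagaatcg
PORB: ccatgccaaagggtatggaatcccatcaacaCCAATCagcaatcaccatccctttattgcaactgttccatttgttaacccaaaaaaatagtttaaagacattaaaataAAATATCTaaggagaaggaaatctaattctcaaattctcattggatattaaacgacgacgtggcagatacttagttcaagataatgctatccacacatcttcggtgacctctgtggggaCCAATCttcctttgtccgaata
FC1: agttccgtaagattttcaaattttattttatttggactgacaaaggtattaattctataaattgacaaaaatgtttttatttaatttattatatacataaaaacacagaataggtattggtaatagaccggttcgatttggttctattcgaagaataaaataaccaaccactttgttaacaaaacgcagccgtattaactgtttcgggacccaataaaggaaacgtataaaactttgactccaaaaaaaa
FC2: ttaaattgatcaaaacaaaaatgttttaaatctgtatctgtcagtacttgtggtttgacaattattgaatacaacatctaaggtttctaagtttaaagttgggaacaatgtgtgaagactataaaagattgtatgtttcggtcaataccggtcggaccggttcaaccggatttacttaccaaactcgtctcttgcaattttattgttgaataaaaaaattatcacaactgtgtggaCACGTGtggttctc
In the window from 250 bases before to 50 bases after the start, the G-box was in 7 of 36 members (19.4%) and in 7.68% of the promoters of 27443 nuclear protein-coding genes. The motif CCAATC was in 6 members (16.7%) against 12.3% of all promoters, GATAAG in 8 (22.2%) against 14.6%, and the evening element in 3 (8.33%) against 5.65%. No matches within the members overlapped. CAO had G-boxes that begin 52 and 32 bases before the start, CRD1 a G-box at 52, HY2 at 79, HEMB2 at 40, HEMD at 22 and FC2 at 14 bases before it. The promoter of NYC1 held a G-box 35 bases after the start. The log2 fold changes of the 6 tested G-box members in albino seedlings ran from -2.71 for CRD1 to 0.22 for HY2, so genes with this motif stood near both ends of the members' range. The 6 members with CCAATC were GSA2, HEMG1, CHLH, GUN4, PORB and PORC, and each of them fell in albino seedlings, as did 29 of the 33 tested members.

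The first step was lower in both mutant groups. HEMA1 (AT1G58290, chromosome 1 from 21623700 to 21626402) encodes the glutamyl-tRNA reductase linked to greening, and HEMA2 (AT1G09940, chromosome 1 from 3236908 to 3239554) the form also used in roots and other non-green tissue. HEMA1 stood at 59.6, 64.3 and 85.2 in green, 47.3, 41.6 and 46.9 in albino and 244, 131 and 147 in wild-type libraries. HEMA2 stood at 16.6, 20.1 and 21.1 in green, 16.2, 15.8 and 20.0 in albino and 46.1, 42.9 and 43.8 in wild-type libraries. Every mutant library was below every wild-type library for both genes, and green and albino libraries overlapped for HEMA2. In green seedlings the log2 fold change was -1.27 ± 0.22 (adjusted p = 0.00656) for HEMA1 and -1.17 ± 0.11 (adjusted p = 0.000651) for HEMA2. In albino seedlings it was -1.87 ± 0.22 (adjusted p = 0.00011) and -1.31 ± 0.11 (adjusted p = 1.9e-05). Between albino and green seedlings HEMA1 had -0.60 ± 0.22 (adjusted p = 0.0568) and was not called. It passed without wild-type replicate 1 (adjusted p = 0.0088), without wild-type replicate 2 (adjusted p = 0.0389) and with only the 6 libraries compared (adjusted p = 0.0114). Other settings weakened it: without 1 library the adjusted p reached 0.187, and over all alternatives the value ran from -0.70 to -0.15. HEMA2 had -0.14 ± 0.11 (adjusted p = 0.355) between the mutant groups, with a 95% interval of -0.40 to 0.11, and turned to 0.29 (adjusted p = 0.04) under TPM. HEMA3, a further copy, stayed at or below 0.631 in every library and was not tested.

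The next enzyme and the brake on the pathway were lower in albino seedlings than in both other groups. GSA1 and GSA2 encode glutamate-1-semialdehyde aminomutase, which makes aminolevulinic acid. GSA1 (AT5G63570) stood at 53.5, 68.1 and 59.5 in green, 42.2, 37.9 and 37.9 in albino and 73.2, 70.6 and 62.7 in wild-type libraries, and GSA2 (AT3G48730) at 107, 132 and 117 in green, 59.5, 54.6 and 53.5 in albino and 141, 133 and 117 in wild-type libraries. FLU (AT3G14110), a membrane protein that binds glutamyl-tRNA reductase and represses it in the dark, stood at 91.7, 124 and 106 in green, 62.5, 53.5 and 59.7 in albino and 110.5, 103 and 92.9 in wild-type libraries. The albino libraries lay below all others for each of the 3 genes, and green and wild-type libraries overlapped. The log2 fold changes in albino seedlings were -0.79 ± 0.11 (adjusted p = 0.00028) for GSA1, -1.20 ± 0.11 (adjusted p = 2.21e-05) for GSA2 and -0.79 ± 0.12 (adjusted p = 0.000674) for FLU. In green seedlings they were -0.19 ± 0.11, -0.13 ± 0.11 and 0.060 ± 0.12, and none passed (adjusted p = 0.35, 0.539 and 0.84). Against green seedlings, the albino group had -0.60 ± 0.11 (adjusted p = 0.00192) for GSA1, -1.07 ± 0.11 (adjusted p = 6.89e-05) for GSA2 and -0.85 ± 0.12 (adjusted p = 0.000583) for FLU; the call of GSA1 was lost under TPM (-0.16, adjusted p = 0.119).

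From aminolevulinic acid to protoporphyrin IX, the abundant form of each enzyme fell in albino seedlings and the second forms of the oxidases did not. Of 10 members 9 were tested, and 7 fell in albino seedlings, where 20.1% of all genes did, with a median of -1.23 for the 9. In green 0 of 9 were called, where 8.87% of all genes were, so this count is near the share over all genes. HEME1 (AT3G14930) and HEME2 (AT2G40490) encode uroporphyrinogen decarboxylases. HEME1 stood at 72.8, 85.4 and 92.4 in green, 30.5, 29.2 and 27.5 in albino and 114, 101 and 97.2 in wild-type libraries, and HEME2 at 103, 117 and 115 in green, 53.5, 49.7 and 52.4 in albino and 162, 122 and 124 in wild-type libraries. HEMC (AT5G08280), the hydroxymethylbilane synthase, stood at 188, 212 and 214 in green, 100.2, 92.2 and 83.3 in albino and 271, 249 and 226 in wild-type libraries. All albino libraries lay below the green ones, and the green ones below the wild type, for these 3 genes. Their log2 fold changes were -1.80 ± 0.11 (adjusted p = 3.12e-06) for HEME1, -1.36 ± 0.12 (adjusted p = 1.89e-05) for HEME2 and -1.43 ± 0.11 (adjusted p = 1.06e-05) for HEMC in albino seedlings. In green seedlings they were -0.32 ± 0.11 (adjusted p = 0.11), -0.27 ± 0.12 (adjusted p = 0.225) and -0.28 ± 0.11 (adjusted p = 0.177), so the green groups did not overlap with the wild type and yet did not pass.

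HEMF1 (AT1G03475), also known as LIN2, encodes the main coproporphyrinogen oxidase and HEMF2 (AT4G03205) its second copy. HEMF1 stood at 114, 131 and 130.0 in green, 53.6, 50.5 and 47.2 in albino and 138, 122 and 117 in wild-type libraries, and HEMF2 at 9.47, 9.91 and 8.86 in green, 8.72, 9.44 and 8.87 in albino and 8.27, 7.63 and 7.60 in wild-type libraries. HEMF1 fell in albino seedlings against the wild type (-1.30 ± 0.10, adjusted p = 1e-05) and against green seedlings (-1.29 ± 0.10, adjusted p = 1.68e-05). Every mutant library lay above every wild-type library for HEMF2, yet neither the value of 0.18 ± 0.080, adjusted p = 0.096 in albino nor that of 0.24 ± 0.080, adjusted p = 0.11 in green seedlings passed. The protoporphyrinogen oxidases differed in the same way. HEMG1 (AT4G01690), the plastid form, stood at 82.7, 101 and 86.7 in green, 41.1, 36.4 and 41.9 in albino and 103, 96.9 and 85.0 in wild-type libraries. HEMG2 (AT5G14220), the form also assigned to mitochondria, stood at 12.7, 11.9 and 12.3 in green, 10.9, 10.2 and 11.2 in albino and 12.8, 10.1 and 9.26 in wild-type libraries. HEMG1 fell in albino seedlings (-1.23 ± 0.11, adjusted p = 2.11e-05), and HEMG2 had 0.019 ± 0.11 (adjusted p = 0.907) with an interval of -0.23 to 0.27. Under TPM both minor forms were called higher in albino seedlings, HEMF2 at 0.63 (adjusted p = 0.00062) and HEMG2 at 0.47 (adjusted p = 0.00835), beside a median of 0.50 over all genes. HEMB1 (AT1G69740), the aminolevulinic acid dehydratase, averaged 109 ± 6.14 in green, 69.0 ± 2.27 in albino and 117 ± 7.61 in wild-type libraries, with -0.75 ± 0.087 (adjusted p = 0.000102) in albino seedlings (SD, n = 3 each). HEMD (AT2G26540), the uroporphyrinogen III synthase, averaged 20.8 ± 2.35 in green, 13.3 ± 0.607 in albino and 21.0 ± 2.97 in wild-type libraries, with -0.62 ± 0.12 (adjusted p = 0.00223) in albino seedlings; the call of HEMD was lost under TPM (-0.18, adjusted p = 0.21). The second dehydratase gene, HEMB2, was at or below 0.853, with 0 listed in wild-type replicates 1 and 2, and was not tested.

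The magnesium branch showed the deepest falls. All 8 members were lower in albino seedlings, where 20.1% of all genes were, with a median of -1.79. In green 0 of 8 were called, where 8.87% of all genes were, so that count is near the share over all genes. With the deposited scaling each fell by 1 or more on the log2 scale, where 7.74% of all genes did. Over the alternatives the fall was as small as -0.55 for CHLD, -0.79 for CHLI2 and -0.81 for EMB3143. GUN4 (AT3G59400, chromosome 3 from 21948501 to 21949796), which binds porphyrins and activates magnesium chelatase, stood at 64.2, 98.5 and 89.7 in green, 12.5, 10.9 and 9.91 in albino and 124, 67.7 and 60.5 in wild-type libraries. CRD1 (AT3G56940, chromosome 3 from 21076505 to 21078443), the cyclase subunit also called CHL27, stood at 825, 1154 and 1073 in green, 203, 167 and 156 in albino and 1373, 1083 and 1010.0 in wild-type libraries. CHLH (AT5G13630, chromosome 5 from 4387307 to 4392429), the porphyrin-binding subunit of magnesium chelatase and known as GUN5, stood at 266, 413 and 355 in green, 93.2, 69.0 and 68.1 in albino and 563, 412 and 402 in wild-type libraries. Albino levels were 13.2% of the wild-type mean for GUN4, 15.2% for CRD1 and 16.7% for CHLH. The log2 fold changes in albino seedlings were -2.74 ± 0.25 (adjusted p = 2.44e-05), -2.71 ± 0.18 (adjusted p = 4.74e-06) and -2.56 ± 0.20 (adjusted p = 1.05e-05). Against green seedlings they were -2.80 ± 0.25 (adjusted p = 3.63e-05), -2.52 ± 0.18 (adjusted p = 1.05e-05) and -2.14 ± 0.20 (adjusted p = 4.37e-05).

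Green and wild-type libraries overlapped for the same genes. Their log2 fold changes against the wild type were 0.053 ± 0.25 (adjusted p = 0.938) for GUN4, -0.19 ± 0.18 (adjusted p = 0.616) for CRD1 and -0.42 ± 0.20 (adjusted p = 0.261) for CHLH. Green replicate 1 had the lowest green level of each of these 3 genes. GUN4 shares 946 bases with AT3G59410 on the other strand, which averaged 8.52 in green, 6.32 in albino and 8.68 in wild-type libraries. EMB3143 shares 211 bases with AT5G58260 on the other strand, which averaged 44.7 in green, 6.33 in albino and 42.8 in wild-type libraries and fell in albino seedlings by more than EMB3143 (-2.58, adjusted p = 9.71e-06). The part of these neighbours in the members' values was not tested. How reads on overlapping genes were assigned is not given in the sources used here, and 17 of the 36 members overlap another annotated gene.

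The remaining genes of the branch fell by less. CHLM (AT4G25080), the methyltransferase that follows the chelatase, stood at 159, 194 and 201 in green, 58.9, 53.7 and 61.8 in albino and 258, 186 and 194 in wild-type libraries, with -1.84 ± 0.14 (adjusted p = 1.03e-05) in albino seedlings. The ATPase subunits CHLI1 (AT4G18480) and CHLI2 (AT5G45930) are close copies whose reads may not be fully separable. CHLI1 stood at 298, 366 and 364 in green, 115, 102 and 109 in albino and 412, 345 and 342 in wild-type libraries, and CHLI2 at 51.7, 45.0 and 56.0 in green, 25.3, 21.2 and 22.9 in albino and 71.8, 46.5 and 52.5 in wild-type libraries. In albino seedlings CHLI1 had -1.74 ± 0.12 (adjusted p = 6.43e-06) and CHLI2 -1.24 ± 0.15 (adjusted p = 0.000157). CHLD (AT1G08520), the remaining chelatase subunit, averaged 92.1 ± 9.26 in green, 51.1 ± 2.49 in albino and 104 ± 7.56 in wild-type libraries and had the smallest fall of the branch, -1.02 ± 0.10 (adjusted p = 3.56e-05). EMB3143 (AT5G58250), the homologue of the cyanobacterial and algal cyclase factor YCF54, averaged 147 ± 10.4 in green, 62.7 ± 7.42 in albino and 154 ± 14.4 in wild-type libraries and had -1.28 ± 0.12 (adjusted p = 2.29e-05). Among the chelatase subunits the log2 fold change in albino seedlings was -2.56 for CHLH, -1.74 for CHLI1, -1.24 for CHLI2 and -1.02 for CHLD. Against green seedlings it was -2.14, -1.64, -1.10 and -0.83; both comparisons use the same albino libraries, and differences between subunits were not tested.

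**Figure D2:**
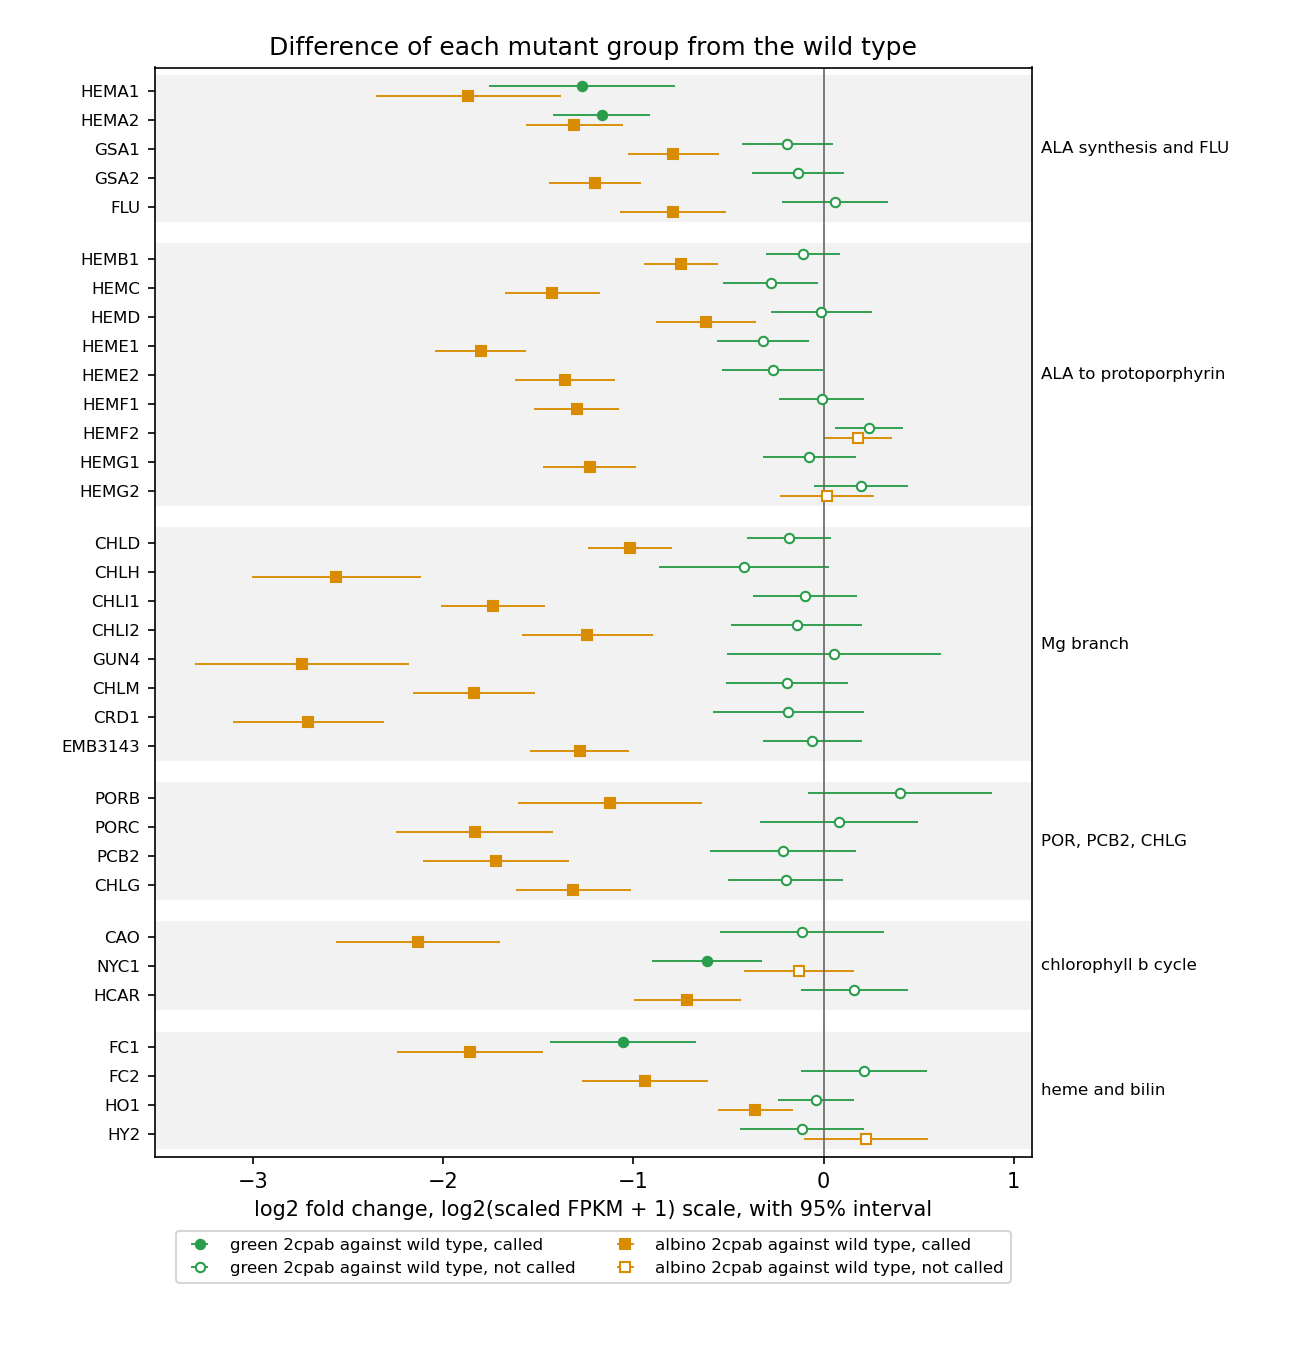
Log2 fold changes of both mutant groups against the wild type with 95% intervals, on the log2(scaled FPKM + 1) scale; filled symbols passed an adjusted p of 0.05. In albino seedlings 29 of 33 symbols are filled and lie below 0, the lowest being GUN4 at -2.74; in green seedlings HEMA1, HEMA2, FC1 and NYC1 are filled. Both comparisons share the wild-type libraries.

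The last steps to chlorophyll a fell in albino seedlings as well, in 4 of 4 tested members, where 20.1% of all genes fell. None of the 4 was called in green, where 8.87% of all genes were, so that count is near the share over all genes. PORB (AT4G27440) and PORC (AT1G03630) encode the light-dependent protochlorophyllide oxidoreductases of seedlings in light. PORB stood at 151, 127 and 125 in green, 45.8, 50.7 and 41.7 in albino and 125, 124 and 66.8 in wild-type libraries, and PORC at 67.7, 97.5 and 91.8 in green, 24.6, 20.6 and 20.2 in albino and 104, 75.8 and 64.9 in wild-type libraries. Albino libraries were below all others for both, with log2 fold changes of -1.12 ± 0.22 (adjusted p = 0.00235) for PORB and -1.83 ± 0.19 (adjusted p = 4.41e-05) for PORC against the wild type. PORB was higher in every green than in every wild-type library, yet the value of 0.40 ± 0.22 (adjusted p = 0.326) did not pass, and without wild-type replicate 3, the lowest of its group, it was 0.10 (adjusted p = 0.728). PORA (AT5G54190), the form of dark-grown seedlings, was listed at 0 in the 3 albino libraries and at 0.125 to 0.284 in the other 6, and was not tested. PCB2 (AT5G18660), the divinyl reductase, stood at 48.4, 61.4 and 68.0 in green, 20.4, 18.5 and 21.1 in albino and 86.3, 53.9 and 68.0 in wild-type libraries. CHLG (AT3G51820), the chlorophyll synthase that attaches the phytol tail, stood at 74.8, 104 and 98.9 in green, 46.3, 39.2 and 40.0 in albino and 117, 101 and 98.9 in wild-type libraries. Their log2 fold changes in albino seedlings were -1.72 ± 0.17 (adjusted p = 4.08e-05) and -1.32 ± 0.14 (adjusted p = 4.92e-05); in green they were -0.21 ± 0.17 (adjusted p = 0.536) and -0.20 ± 0.14 (adjusted p = 0.448).

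In the chlorophyll b cycle, the enzyme that makes chlorophyll b fell in albino seedlings and an enzyme that removes it fell in green ones. CAO (AT1G44446, chromosome 1 from 16848308 to 16851271), the oxygenase that makes chlorophyll b, stood at 69.0, 72.1 and 76.6 in green, 19.3, 16.1 and 16.2 in albino and 113, 61.4 and 69.8 in wild-type libraries, and fell to 21.1% of the wild-type mean in albino seedlings (-2.13 ± 0.19, adjusted p = 2.25e-05). It did not pass in green (-0.11 ± 0.19, adjusted p = 0.796). NYC1 (AT4G13250, chromosome 4 from 7684156 to 7687006), a chlorophyll b reductase that starts the way back to chlorophyll a, stood at 18.2, 16.0 and 17.3 in green, 22.7, 26.5 and 24.2 in albino and 33.3, 24.1 and 23.9 in wild-type libraries. Every green library was below all other libraries, and albino and wild-type libraries overlapped. Green seedlings had a log2 fold change of -0.61 ± 0.13 (adjusted p = 0.0176) for NYC1 and albino seedlings one of -0.13 ± 0.13 (adjusted p = 0.453). Albino against green seedlings gave 0.49 ± 0.13 (adjusted p = 0.0155). The call in green was lost without green replicate 2 (adjusted p = 0.0631), and that between the mutant groups without green replicate 2 (adjusted p = 0.0537) or albino replicate 2 (adjusted p = 0.0652). HCAR (AT1G04620), which completes the return by reducing hydroxymethyl chlorophyll a, stood at 13.7, 15.3 and 14.0 in green, 7.30, 8.22 and 6.55 in albino and 15.0, 12.9 and 10.6 in wild-type libraries. In albino seedlings HCAR had -0.72 ± 0.13 (adjusted p = 0.00135), or -0.30 (adjusted p = 0.0507) under TPM, and in green it had 0.16 ± 0.13 (adjusted p = 0.522).

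In the heme branch, FC1 fell in green seedlings, and both ferrochelatase genes fell in albino ones. FC1 (AT5G26030, chromosome 5 from 9096451 to 9099185) is expressed in all organs and responds to stress, and FC2 (AT2G30390) is the form of green tissue. FC1 stood at 44.0, 51.1 and 66.3 in green, 27.5, 30.3 and 32.1 in albino and 114, 90.0 and 134 in wild-type libraries. FC2 stood at 28.2, 31.3 and 34.4 in green, 14.4, 13.0 and 13.1 in albino and 35.0, 23.9 and 23.0 in wild-type libraries. Every green library was below every wild-type library for FC1, whereas for FC2 green and wild-type libraries overlapped. The log2 fold change in green was -1.05 ± 0.17 (adjusted p = 0.00512) for FC1 and 0.21 ± 0.15 (adjusted p = 0.467) for FC2. In albino seedlings it was -1.86 ± 0.17 (adjusted p = 2.54e-05) for FC1 and -0.94 ± 0.15 (adjusted p = 0.000705) for FC2. Between the mutant groups FC1 had -0.80 ± 0.17 (adjusted p = 0.00514) and FC2 -1.15 ± 0.15 (adjusted p = 0.000287); under TPM FC1 no longer passed (-0.37, adjusted p = 0.0966).

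The genes from heme to the phytochrome chromophore moved by less, and their calls depended on scaling. HO1 (AT2G26670), the main heme oxygenase, stood at 73.4, 73.8 and 83.1 in green, 58.9, 64.2 and 60.9 in albino and 85.0, 76.2 and 75.9 in wild-type libraries. HY2 (AT3G09150), the phytochromobilin synthase, stood at 5.54, 5.75 and 6.22 in green, 8.87, 6.90 and 7.21 in albino and 8.24, 5.92 and 5.32 in wild-type libraries. HO1 fell in albino seedlings with the deposited scaling (-0.36 ± 0.089, adjusted p = 0.00904) but turned to 0.11 (adjusted p = 0.376) under TPM and was not called with quantile normalization (-0.14, adjusted p = 0.231). Against green seedlings it had -0.32 ± 0.089, adjusted p = 0.0196, a call that was lost without green replicate 3, albino replicate 1 or albino replicate 3 (adjusted p = 0.0832, 0.0795 and 0.0554). HY2 had 0.22 ± 0.15 (adjusted p = 0.247) in albino and -0.11 ± 0.15 (adjusted p = 0.723) in green seedlings; without wild-type replicate 1 it was called higher in albino seedlings (0.38, adjusted p = 0.0338), and likewise under TPM (0.67, adjusted p = 0.00301).

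**Figure D3:**
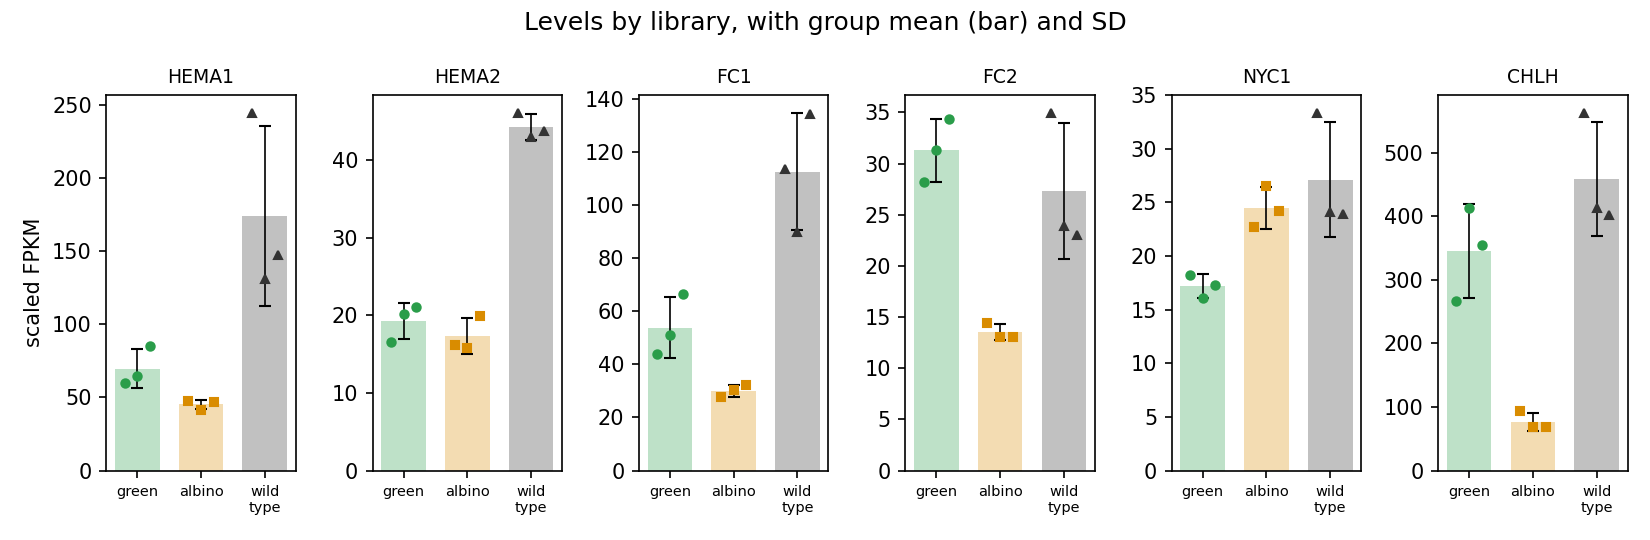
Scaled FPKM of HEMA1, HEMA2, FC1, FC2, NYC1 and CHLH in each library (points), with the group mean (bar) and SD (n = 3 libraries); each panel has its own axis from 0. HEMA1, HEMA2 and FC1 lie below the wild-type libraries in both mutant groups, FC2 and CHLH overlap with the wild type in the green group, and NYC1 overlaps with it in the albino group.

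For the 29 members not called in green seedlings the 95% interval of the log2 fold change in green lay between -1 and 1, its outer limits over the 29 being -0.86 and 0.89. When green replicate 1 alone stood for the green group, and was taken to vary like the others, 3 members were called lower in green, HEMA1, HEMA2 and FC1, and the members' median in that library relative to the wild-type mean was -0.28. In green replicates 2 and 3, which held more RNA of 2CPA and 2CPB, this median was -0.016 and -0.036. The closeness of the green group to the wild type thus rests more on these libraries than on green replicate 1. Whether the RNA left of 2CPA and 2CPB plays a part was not tested. Between albino and green seedlings the 5 members not called were HEMA1, HEMA2, HEMF2, HEMG2 and HY2.

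Shares within an isozyme set do not depend on how libraries were scaled, and in albino seedlings most of them lay outside the wild-type range. HEMF1 made up 93.0 ± 0.655% of HEMF RNA in green, 84.8 ± 1.04% in albino and 94.1 ± 0.217% in wild-type libraries (SD, n = 3 each, as for the other shares). HEMG1 made up 87.9 ± 1.43% of HEMG RNA in green, 78.7 ± 0.453% in albino and 89.9 ± 0.876% in wild-type libraries. Albino libraries thus lay apart from the wild type for both, with a difference of -9.31 percentage points for HEMF1 and -11.2 for HEMG1. HEME1 was 42.7 ± 1.60% of HEME RNA in green, 35.9 ± 1.32% in albino and 43.6 ± 1.98% in wild-type libraries, and CHLI1 was 87.0 ± 1.93% of CHLI RNA in green, 82.5 ± 0.441% in albino and 86.7 ± 1.47% in wild-type libraries. GSA1, the less expressed aminomutase gene, was 33.7 ± 0.331% of GSA RNA in green, 41.3 ± 0.279% in albino and 34.6 ± 0.347% in wild-type libraries. The less expressed copy thus had a larger share in albino than in wild-type libraries for HEMA, GSA, HEMF, HEMG, CHLI and FC. The opposite held for HEME1 and PORC, less expressed copies with smaller shares, and for HO1, a main form with a larger share. In the POR set PORB was 61.1 ± 6.90% in green, 67.9 ± 3.02% in albino and 55.7 ± 5.77% in wild-type libraries, and PORC, the less expressed of both, was 38.8 ± 6.92% in green, 32.1 ± 3.02% in albino and 44.1 ± 5.74% in wild-type libraries. HEMB1 averaged 99.7 ± 0.0613% of HEMB RNA in green, 99.3 ± 0.0701% in albino and 99.7 ± 0.435% in wild-type libraries; each mutant group overlapped with the wild type, and albino and green libraries did not overlap.

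Among the 11 shares, that of FC1 differed by the most points between green and wild-type libraries. FC1 made up 62.9 ± 2.60% of FC RNA in green, 68.9 ± 2.89% in albino and 80.3 ± 4.58% in wild-type libraries, and neither mutant group overlapped with the wild type. HEMA1, by contrast, held 78.2 ± 2.00% of HEMA1 and HEMA2 RNA in green, 72.4 ± 2.19% in albino and 78.8 ± 4.69% in wild-type libraries, a difference in green of -0.637 points, less than the spread between libraries. HO1 was 81.3 ± 0.714% of the RNA of the 4 heme oxygenase genes in green, 83.5 ± 1.33% in albino and 80.8 ± 0.976% in wild-type libraries; HO2 made up nearly all of the rest, and HO3 and HO4 were at or below 0.190. With 3 libraries against 3 the exact two-sided permutation test cannot go below 0.10, which it reached for 10 of 11 shares in albino against wild-type libraries and for 3 of 11, GSA1, HEMF1 and FC1, in green (33 tests, adjusted p = 0.157 for each). No share test can therefore pass 0.05 in this design. PORA was at or below 0.284, so the shares of PORB and PORC mirror each other and are not separate results among the 11.

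**Figure D4:**
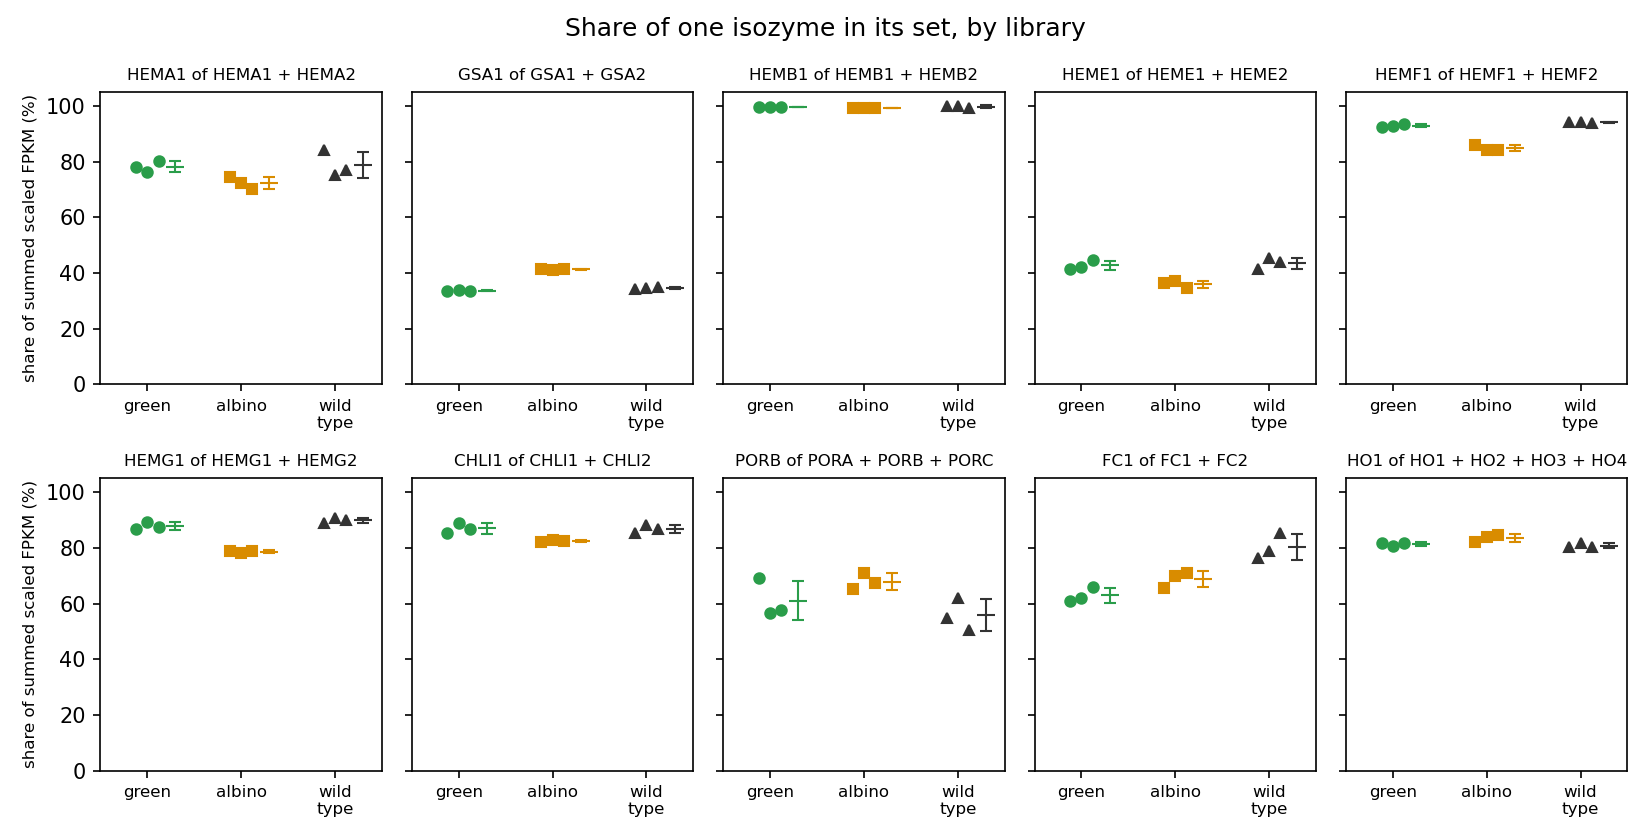
Share of the named isozyme in the summed scaled FPKM of its set in each library (points), with group mean and SD (n = 3); groups from left to right are green 2cpab, albino 2cpab and wild type. FC1 is lower in both mutant groups, HEMF1 and HEMG1 are lower and GSA1 is higher in the albino group.

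Pathway genes outside the list moved in both directions in albino seedlings. The list holds 25 genes, of which 22 were tested. Of these 9 fell and 8 rose in albino seedlings, where 20.1% of all genes fell and 23.4% rose. In green 0 fell and 2 rose, which is 2 of 22 called where 8.87% of all genes were; under TPM 7 fell and 12 rose in albino seedlings, of 23 tested. The falls included AT1G74470, the geranylgeranyl reductase that makes the phytol tail (162, 137 and 132 in albino and 705, 549 and 464 in wild-type libraries; -1.97 ± 0.17, adjusted p = 2.06e-05). Others were AT1G44000, a STAY-GREEN-like gene (-1.97 ± 0.24, adjusted p = 0.000125), LIL3:1, a light-harvesting-like protein that binds that reductase (-1.68 ± 0.15, adjusted p = 2.13e-05), and AT2G35260 (-1.60 ± 0.15, adjusted p = 3.38e-05). RCCR, an enzyme of chlorophyll breakdown, also fell (-1.06 ± 0.11, adjusted p = 5.58e-05). The rises were led by TSPO, a membrane protein that binds heme, with 10.3, 10.6 and 5.26 in green, 13.5, 13.3 and 10.7 in albino and 2.88, 5.03 and 2.69 in wild-type libraries; it passed in albino (1.60 ± 0.25, adjusted p = 0.000731) and in green (1.08 ± 0.25, adjusted p = 0.0281). CLH1, a chlorophyllase, rose in albino seedlings (1.20 ± 0.20, adjusted p = 0.000974), as did SGR1, the magnesium dechelatase of chlorophyll breakdown (1.11 ± 0.10, adjusted p = 2.73e-05). PPH, the pheophytinase that follows it, stood at 28.6, 28.0 and 32.8 in albino and 18.1, 18.9 and 18.8 in wild-type libraries (0.65 ± 0.087, adjusted p = 0.000255). In green seedlings the other rise was SGR2 (0.61 ± 0.13, adjusted p = 0.0188). SGR2 stood at 1.22, 1.34 and 1.23 in green, 1.09, 1.34 and 0.914 in albino and 0.357, 0.493 and 0.608 in wild-type libraries. It thus lay near the filter limit of 1 and was tested only because of its level in mutant libraries, which limits what its rises can show. Both green calls were lost without wild-type replicate 1 or green replicate 2, with adjusted p of 0.053 and 0.0587 for SGR2 and 0.0815 and 0.0983 for TSPO. That of TSPO was also lost without wild-type replicate 3 or green replicate 1 (adjusted p = 0.098 and 0.088). In albino seedlings SGR2 (0.51 ± 0.13, adjusted p = 0.0107) was lost without albino replicate 2 (adjusted p = 0.0596). Against green seedlings 10 of 22 were lower and 3 higher in albino ones, where 17.7% of all genes were lower and 18.5% higher. The count of rises thus does not exceed the share over all genes. SGR1 (1.16 ± 0.10, adjusted p = 3.48e-05) and PPH (0.69 ± 0.087, adjusted p = 0.000257) were among the rises. The genes named here kept their direction and their calls in albino against wild-type seedlings under TPM.

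Of 13 regulators of greening 5 fell and 3 rose in albino seedlings, where 20.1% of all genes fell and 23.4% rose, so the count of rises is near the share over all genes. In green 0 fell and 2 rose, where 5.16% of all genes fell and 3.71% rose. Under TPM 4 fell and 7 rose in albino seedlings, where 12664 of 20999 genes rose. GLK1 and GLK2 are transcription factors that activate genes of chlorophyll synthesis and light harvesting. GLK1 stood at 14.2, 23.5 and 16.0 in green, 5.17, 4.66 and 3.96 in albino and 22.2, 19.2 and 13.3 in wild-type libraries, and GLK2 at 33.9, 53.7 and 37.5 in green, 14.0, 12.6 and 15.5 in albino and 44.5, 34.8 and 25.4 in wild-type libraries. Their log2 fold changes were -1.76 ± 0.21 (adjusted p = 0.000127) and -1.22 ± 0.21 (adjusted p = 0.00122) in albino seedlings and -0.026 ± 0.21 (adjusted p = 0.962) and 0.26 ± 0.21 (adjusted p = 0.542) in green. PIF4 and PIF5, phytochrome-interacting factors, also fell in albino seedlings (-1.11 ± 0.14, adjusted p = 0.000162 for PIF4, and -1.17 ± 0.13, adjusted p = 7.34e-05 for PIF5). The remaining fall was FAR1 (-0.30 ± 0.11, adjusted p = 0.0443). Its call was lost without albino replicate 1, 2 or 3 (adjusted p = 0.061, 0.0962 and 0.138), and under TPM its value was 0.12 (adjusted p = 0.466). PIF3, which represses chlorophyll synthesis genes in the dark, rose in albino seedlings (0.88 ± 0.18, adjusted p = 0.00311), and PIF1 (0.57 ± 0.16, adjusted p = 0.0137) and CGA1 (0.54 ± 0.17, adjusted p = 0.0296) passed as well. In green seedlings CGA1 (0.75 ± 0.17, adjusted p = 0.0252) and PIF1 (0.58 ± 0.16, adjusted p = 0.0475) rose. These calls of CGA1 and PIF1 were lost under alternatives, with adjusted p of up to 0.184 for CGA1 and 0.243 for PIF1 in green and of up to 0.113 for CGA1 and 0.0568 for PIF1 in albino seedlings. In green, CGA1 was lost without wild-type replicate 2 or 3 or green replicate 1 or 2. PIF1 was lost there without any 1 library except wild-type replicate 1 and albino replicate 3. In albino seedlings both were lost when replicate 1 or 2 of the albino group or wild-type replicate 3 was left out, and CGA1 also without wild-type replicate 2. HY5, an activator of HEMA1 and other light-induced genes, had 0.41 ± 0.16 (adjusted p = 0.066) in albino and 0.063 ± 0.16 (adjusted p = 0.876) in green seedlings. Its call in albino seedlings depended on the setting: it passed under TPM (0.87, adjusted p = 0.00057) and, among the libraries left out, without wild-type replicate 2 (adjusted p = 0.0252) or green replicate 2 (adjusted p = 0.0348).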

How the data were processed

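Per the labels' protocols, a Sure Prep kit gave the RNA and an Illumina stranded mRNA kit the libraries. FastQC, HISAT2, StringTie and the TAIR10 build are named without versions in the submitters' processing notes; how reads were assigned to genes is not given in the sources used here. The authors deposited log2 values of 32833 genes in 9 libraries. Read from the values, they equal log2(factor × FPKM + 1), with 1 factor per library: after division by it, 79.5% to 81.7% of low values fell on a grid of 6 decimals (tolerance 0.05 of a step), and every library has a 75th percentile of 3.70. The factors averaged 1.04 in green, 0.787 in albino and 1.05 in wild-type libraries.

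The deposited log2 values were fitted with limma 3.58.1 (R 4.3.3; group means, all 9 libraries, eBayes with trend) for the 19731 genes that reached a scaled FPKM of 1 in 3 or more libraries. P values were adjusted by Benjamini-Hochberg over all of them within each comparison. The code was tested on simulated data. Isozyme shares were put to an exact permutation test, two-sided. Members, lists, motifs and tests were chosen with earlier results of these data known, the members by locus and the other lists from general knowledge. Values in every library are given for called members, up to the 4 largest changes per branch and comparison, and for isozyme sets; of the other lists, called genes up to the 4 largest changes per comparison were to be named. CLH1, SGR1, PPH, RCCR, PIF3, HY5, FAR1, AT3G59410 and AT5G58260 were named after their values were seen. Other pseudocounts, filters, scalings, models and sets of libraries were tried as alternatives. Gene names, positions and promoter sequences came from RefSeq's TAIR10.1 annotation, in which all 36 members matched. Other steps used scipy 1.17.1, pandas 2.3.3 and numpy 2.4.6 under Python 3.11.15, with plots from matplotlib 3.10.9. Read counts and protein levels were not analysed here.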

Additional observations from a re-analysis of the deposited data

How the results depend on the processing

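Precision is limited by 3 libraries per group and an unknown read depth, and calls of small changes depend on scaling. Over 23 alternatives, 729 of 759 values of members in green, 732 of 759 in albino against wild type and 717 of 759 in albino against green seedlings kept their direction and their side of the threshold. Without 1 library each, 29 members were called lower in albino against wild type in all 9 cases, and 26 to 28 in albino against green.

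Whether replicate numbers pair these libraries is not known. Correlations of the deviations of libraries from their group means ran from -0.15 to 0.28 for same-numbered libraries of different groups. For different-numbered ones they ran from -0.355 to 0.15. The highest were those of green with wild-type replicate 2 (0.28) and of green with wild-type replicate 3 (0.27). A shared batch was not tested. With a replicate block, 4 members were lower in green, 29 in albino against wild type and 27 in albino against green seedlings, 1 was higher in the last comparison, and 1784, 8621 and 7112 of all genes were called.

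Without 1 library each, 1030 to 1627 of all genes were called in green against wild type (1751 with all 9 libraries), 6440 to 8755 in albino against wild type and 5073 to 7463 in albino against green. The count was 1030 without wild-type replicate 3 and 1107 without green replicate 2. Members called higher numbered 0 to 1 in albino against wild type, the 1 being without wild-type replicate 1, and 0 to 2 in albino against green: 2 without wild-type replicate 1 and 0 without green replicate 2 or albino replicate 2. Members called lower in green numbered 3 to 4, with 3 without green replicate 2.

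Under TPM, without organelle genes and with the scaling undone, 3, 3 and 3 members were higher in albino against wild type and 5, 5 and 3 in albino against green seedlings. All genes called were then 14815, 14825 and 14039 in albino against wild type and 14175, 14166 and 13210 in albino against green. Fitting 6 libraries gave 1100 genes in green and 2 members higher in albino than in green; without a filter 2 were higher. A 2-fold change as a further condition left 491 genes in green, 2439 in albino against wild type and 1947 in albino against green, with 0 members higher. Without green replicates 2 and 3, 737 genes were called in green, 2669 in albino against green, and 0 members were higher in albino than in green.

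Direction turned under these 3 scalings, in the order above, for HEMD (0.0054, 0.0097 and 0.012) and HEMF1 (0.0084, 0.013 and 0.016) in green against wild type. It also turned for NYC1 (0.33, 0.34 and 0.28) and HO1 (0.11, 0.11 and 0.054) in albino against wild type. In albino against green it turned for HEMA2 (0.29, 0.29 and 0.23), HEMF2 (0.37, 0.37 and 0.30), HEMG2 (0.25, 0.25 and 0.19) and HO1 (0.13, 0.13 and 0.071). These scalings put the median of all genes in albino against wild type at 0.50, 0.51 and 0.44. With the median of ratios HEMG2 was at -0.041 in albino seedlings. Without green replicates 2 and 3, FLU was at -0.15, GUN4 at -0.31 and PORC at -0.24 in green, and HEMA2 at 0.051 in albino against green.

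Without 1 library each, the value in green against wild type spanned 0 for CAO (-0.29 to 0.14), CHLI1 (-0.15 to 0.00050), CHLI2 (-0.27 to 0.036), EMB3143 (-0.13 to 0.0061), FLU (-0.050 to 0.17), GUN4 (-0.14 to 0.37), HEMD (-0.13 to 0.075), HEMF1 (-0.058 to 0.059), HO1 (-0.10 to 0.011), HY2 (-0.23 to 0.047) and PORC (-0.067 to 0.27). In albino against wild type it did so for HEMG2 (-0.070 to 0.14) and NYC1 (-0.21 to 0.024). None of these was called. The cause was not tested.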
